A study of Caenorhabditis elegans with 55 samples.

Results

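The 57 protein-coding genes of Caenorhabditis elegans whose symbols begin with grl- (ground-like), grd- (groundhog) or wrt- (warthog) encode Hedgehog-related proteins. They were chosen by symbol alone and comprised 31 grl, 16 grd and 10 wrt genes. Of the 57, 55 had an entry in both mRNA tables, among 19390 genes that the tables share. The other two, grd-8 and grl-29, were listed for the mutant strain only and were not tested. No measured value was used in the choice, but the family was put forward with results of these data known. The p-values given here are therefore no independent evidence that the family stands apart from other genes.

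A Hedgehog protein is a secreted signal that is released by Dispatched and received by the membrane protein Patched. C. elegans has no clear Hedgehog and no clear Smoothened, the usual partner of Patched. It has instead a large set of secreted Hedgehog-related proteins and many Patched-related (ptc, ptr) proteins. The wrt and grd proteins pair a Wart or Ground domain in many members with the self-splicing Hint domain of Hedgehog, while grl proteins carry a Ground-like domain without it. Many of the genes are active in the epidermis, its seam cells, and the glia and duct cells that secrete cuticle, and several are needed for moulting. In worms, small RNAs antisense to mRNAs are made by RNA-dependent RNA polymerases and bound by Argonaute proteins. Among these are CSR-1, which has a long isoform CSR-1a and a short isoform CSR-1b, and the WAGO proteins. ALG-3 and ALG-4 act in germ cells that make sperm.

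The study sequenced polyadenylated RNA and Argonaute-bound small RNAs of whole worms labelled as L4 larvae, the last larval stage. The mRNA was taken from the wild-type Bristol strain N2 and from strain JMC164 at 20 C and at 25 C, with 3 libraries in each of 4 groups. JMC164 carries the csr-1 allele tor67, a GFP and FLAG tag in exon 2, together with mg660, a G120* stop. Its mRNA titles name csr-1a(tor159) in place of these alleles, and it is called the mutant here. Small RNAs were sequenced from 10 strains at 20 C, as 2 immunoprecipitates (IPs) and 2 inputs each. Tagged csr-1 was pulled down from JMC101 (tor67, titled CSR-1), JMC151 (tor160, tag in exon 1, CSR-1a) and JMC164 (CSR-1b). JMC205 carries alg-3(tor141), JMC207 alg-4(tor143) and JMC223 wago-4(tor117), each with a GFP and FLAG tag, and JMC248 carries wago-10(tor162) with a FLAG tag alone. The CSR-1a IPs of GR3035 (mgIs75[rpn-2::gfp] and mgTi14[pbs-5::mcherry]) and GR3039 (csr-1(mg657), a G91R change) come from strains whose labels name no tag on CSR-1. JMC161 carries the transgene mgTi11, csr-1a exon 1 with GFP under rpl-28, with unc-119(ed3) and csr-1(tm892), and is titled CSR-1. The labels name GFP beads for every IP, while the protocol also names an antibody to CSR-1a. The 3 inputs of strain GR3043 were not analysed here.

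The mRNA libraries held 7457345 to 18774253 counts. The small RNA libraries held an estimated 325376 to 30284492 reads. GFP was counted 172 to 772 times in the mutant libraries and 0 to 1 times in N2. N2 and the mutant were deposited in separate tables, so strain and table cannot be told apart. Mutant 20 C library 3 stood apart from its group, with a correlation to its group as low as 0.908 where the other groups were at or above 0.971. Its muscle markers summed to 6328 CPM (counts scaled to the library size with edgeR's factors) against 2493 and 2987 in the other two libraries. Its sperm markers summed to 969 CPM against 3052 and 3345, and its oocyte markers to 94.6 CPM against 444 and 534. Its intestinal markers summed to 4146 CPM against 1857 and 1977, and csr-1 itself was at 42.4 CPM against 147 and 234. Nothing in the labels says that libraries of a group came from separate cultures, so p-values measure only the spread between these samples.

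Of the 55 genes in both tables, 41 had enough counts to be tested among 14800 genes. The 14 others were grd-7, grd-9, grl-3, grl-6, grl-9, grl-11, grl-19, grl-20, grl-23, grl-24, grl-25, grl-28, grl-30 and wrt-7. None of these 14 exceeded 10 counts in any library, and their totals over the 12 libraries were 3 to 54. No gene of the family was at 0 in all 12 libraries. A gene counted in a single group could pass the filter through that group, so counts among the 41 describe those genes and not the whole family. In the RefSeq annotation 19 of the 57 genes overlapped another coding gene, 15 another kind of gene and 30 neither.

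The most counted gene was grl-16. It reached 1345, 1414 and 1245 CPM in N2 at 20 C, 620.0, 763 and 1084 CPM in the mutant at 20 C, 82.6, 93.3 and 82.0 CPM in N2 at 25 C, and 131, 162 and 77.6 CPM in the mutant at 25 C. Every 20 C library of grl-16 lay above every 25 C library. Next by mean CPM came grd-5, wrt-4, grl-7, wrt-6, grl-5, grd-14 and grl-15. CPM is not corrected for gene length, so this order ranks reads and not transcripts. Over the tested genes, mean CPM ran from 0.449 to 592.

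**Figure D1:**
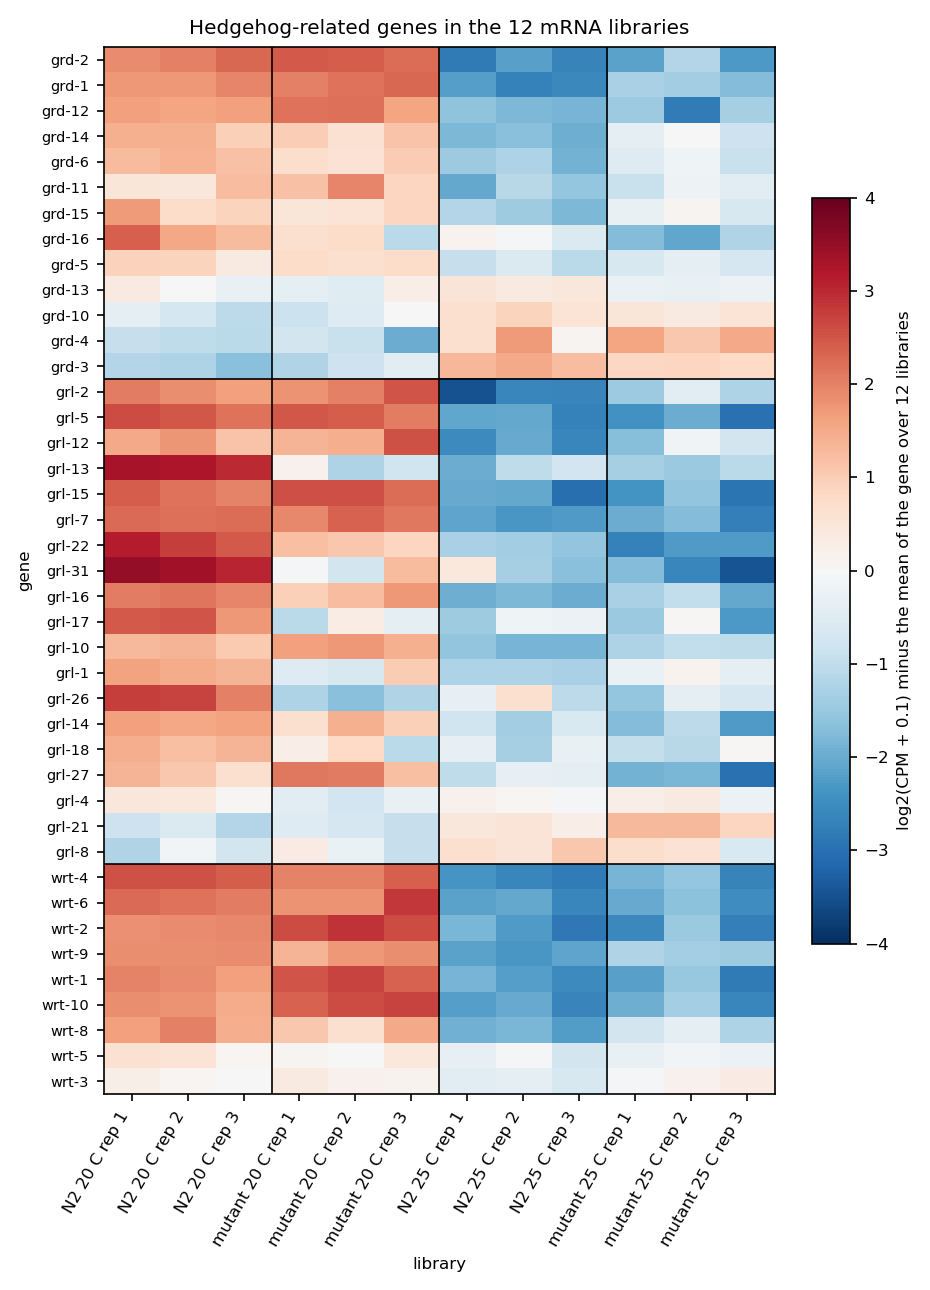
Levels of the 41 tested genes (one line each, grouped as grd, grl and wrt) in the 12 mRNA libraries (columns, black lines between groups), as log2(CPM + 0.1) minus the gene's mean over the libraries. Red is above that mean and blue below it. Most genes are red in the 6 libraries at 20 C and blue in the 6 at 25 C, and grd-3, grd-4, grd-10 and grl-21 show the opposite.

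The first comparison asks how the family's mRNA differed between 25 C and 20 C within N2. Most tested genes were lower at 25 C. edgeR's quasi-likelihood test, with Benjamini-Hochberg adjustment over all 14800 genes and called at an adjusted p under 0.05, found 34 of 41 lower and 5 higher. Over all genes tested 30.4% were called lower and 28.3% higher. The median log2 fold change was -3.08 over the 41 and -0.03 over all genes. In whole worms, fewer cells making an mRNA and less mRNA per cell cannot be told apart. All 9 tested wrt genes were called lower, with a median of -4.03. Of 13 grd genes, 9 were lower and 3 higher (median -2.76). Of 19 grl genes, 16 were lower and 2 higher (median -3.13).

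Among the wrt genes, wrt-4 had 367, 367 and 339 CPM in N2 at 20 C and 12.4, 10.2 and 8.92 CPM at 25 C. The groups were far apart, and the log2 fold change was -5.09 ± 0.28 (SE, 3 libraries a group; edgeR adjusted p = 1.01e-07). The gene wrt-6 went from 271 to 315 CPM at 20 C to 10.7 to 15.9 CPM at 25 C (-4.42 ± 0.33, edgeR adjusted p = 5.02e-07). The neighbours wrt-1 and wrt-10, which have no coding gene between them, fell by 4.03 ± 0.30 and by 4.00 ± 0.29. WRT-10 is a component of the cuticle or its precursor. The pair wrt-3 and wrt-5 moved least, with -0.60 ± 0.21 and -0.79 ± 0.21 (edgeR adjusted p = 0.0284 and 0.00606). The product of wrt-5 is needed in the embryo. The call for wrt-3 was lost without any one of 4 single libraries (edgeR adjusted p up to 0.105).

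Among the grl genes, grl-2 showed the biggest fall in these fits. It is a gene of the excretory duct and pore cells. It had 4.51, 3.96 and 3.39 CPM at 20 C, and at 25 C 0, 0.0846 and 0.0804 CPM. Its 25 C libraries held 2 counts in all against 124 at 20 C, a rate ratio of 0.0142 with a 95% counting interval of 0.0017 to 0.0524. The fitted value of -5.89 rests on those 2 counts. By contrast grl-7, which encodes a cuticle component, was well counted, with 322, 309.9 and 318 CPM at 20 C and 15.5, 13.4 and 13.9 CPM at 25 C. The groups did not overlap, and the change was -4.47 ± 0.24 (edgeR adjusted p = 8.24e-08). The changes of grl-5, grl-12, grl-13, grl-15 and grl-22 were -4.69, -4.60, -4.56, -4.51 and -4.35. The gene grl-16 fell by 3.96 ± 0.28 (edgeR adjusted p = 3.90e-07). A change of -2.06 ± 0.46 was found for grl-18, whose promoter marks inner labial glia (edgeR adjusted p = 0.00237).

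Of the grd genes, grd-2 fell the most, by 4.70 ± 0.31 (edgeR adjusted p = 1.98e-07), from 26.8 to 35.7 CPM at 20 C to 0.937 to 1.52 CPM at 25 C. Next was grd-1, at -4.34 ± 0.19. Of the more counted grd genes, grd-14 fell by 3.08 ± 0.24 and grd-5 by 1.59 ± 0.18. The level of grd-5 was 354, 346 and 243 CPM at 20 C and 98.4, 125 and 89.8 CPM at 25 C, so even its highest 25 C library was below its lowest at 20 C. Besides the 10 biggest falls, the other 24 genes called lower ranged from -4.34 for grd-1 to -0.60 for wrt-3.

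The 5 genes called higher at 25 C in N2 were grd-3, grd-4, grl-8, grd-10 and grl-21. For grd-3, the N2 libraries held 22.9, 21.6 and 15.9 CPM at 20 C and 127, 148 and 120.3 CPM at 25 C. This was an increase of 2.71 ± 0.21 with no overlap (edgeR adjusted p = 6.88e-07). The next gene along the chromosome, grd-10, has a promoter used to mark seam cells. It rose from 21.4, 17.2 and 13.5 CPM to 42.9, 51.8 and 40.9 CPM (1.38 ± 0.22, edgeR adjusted p = 0.000235). On the other side of grd-3, grd-13 was not called, at 0.42 ± 0.22 (edgeR adjusted p = 0.119), although its 25 C libraries all lay above its 20 C ones. These 3 genes are adjacent, with no coding gene between them. The gene grl-21, reported to act through the Patched-related protein PTR-24 on lipid stores and mitochondria, rose from 7.84, 9.33 and 6.19 CPM to 19.4, 20.0 and 16.9 CPM (1.27 ± 0.20, edgeR adjusted p = 0.000211). For the low gene grd-4, 24 counts at 25 C stood against 3 at 20 C, a ratio of 7.05 (2.14 to 36.6). The rise of grl-8, 1.56 ± 0.49 (edgeR adjusted p = 0.0159), was lost without any one of 3 single libraries (adjusted p up to 0.065). The only other gene not called was grl-4, with 63.5, 62.8 and 47.7 CPM at 20 C and 52.6, 49.4 and 45.0 CPM at 25 C (edgeR adjusted p = 0.288).

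**Figure D2:**
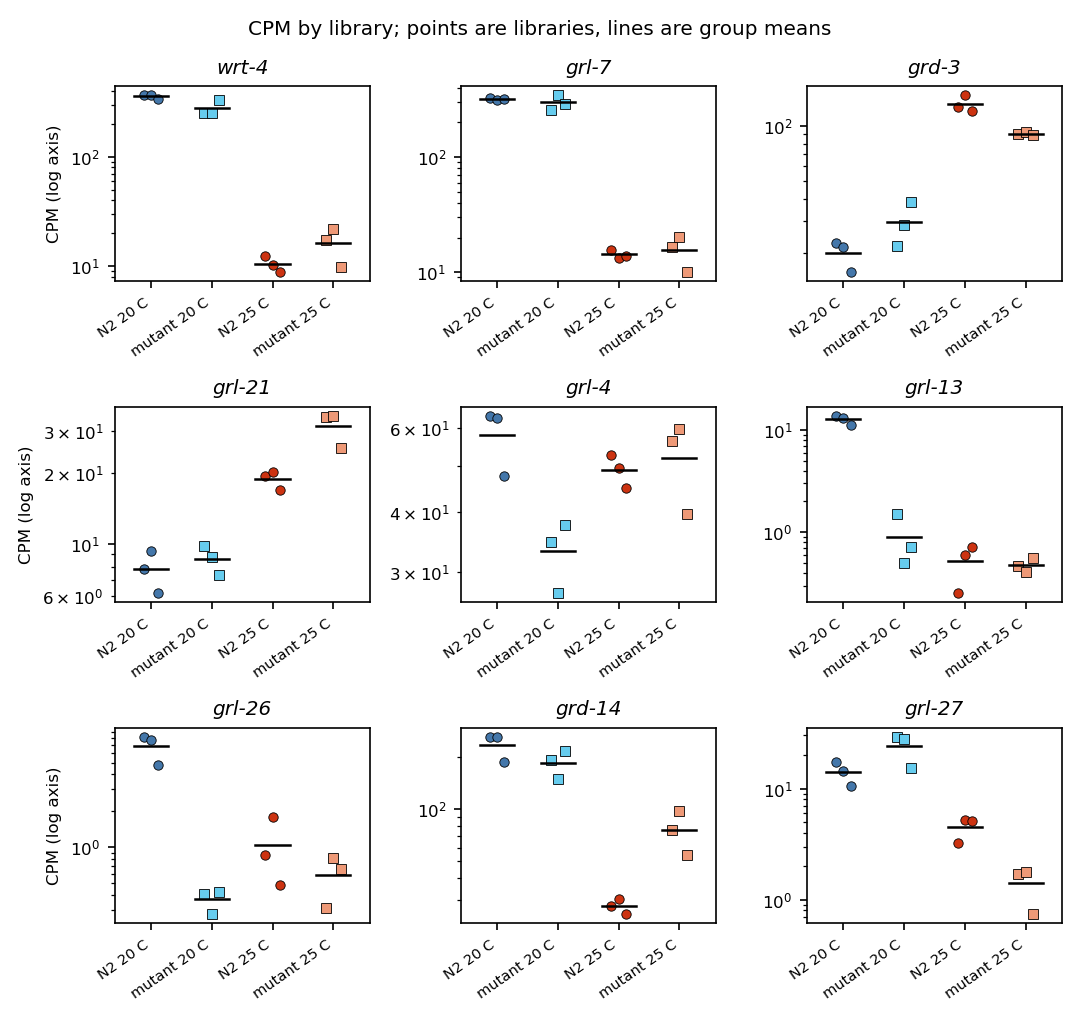
CPM of 9 genes in each mRNA library on log axes, by group; points are libraries and lines are means of the 3 libraries. For wrt-4 and grl-7 both 25 C groups lie far below both 20 C groups; grd-3 and grl-21 are the reverse; grl-13 and grl-26 are high in N2 at 20 C alone; grd-14 and grl-27 differ between the strains at 25 C in opposite directions.

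The same temperature comparison within the mutant called 27 of the 41 genes lower and 5 higher, where 24.4% of all genes were called lower and 26.8% higher. The median log2 fold change was -2.36 over the 41 and 0.02 over all genes. By subfamily, 7 of 9 wrt genes, 9 of 13 grd genes and 11 of 19 grl genes were lower, and 3 grd and 2 grl genes were higher.

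The largest falls in the mutant were those of wrt-2, grl-5, grl-15, wrt-1, wrt-10, wrt-6, grl-7, grd-2, grl-27 and wrt-4, from -4.89 for wrt-2 to -4.08 for grl-27 and wrt-4. The wrt-2 libraries held 106, 130 and 107 CPM at 20 C and 2.79, 6.16 and 2.52 CPM at 25 C. The grl-5 libraries held 305, 292 and 229 CPM at 20 C and 10.2, 13.9 and 6.91 CPM at 25 C. Both pairs of groups were far apart (edgeR adjusted p = 3.34e-07 and 1.54e-07). For wrt-4 the mutant had 249, 251 and 330.1 CPM at 20 C and 17.2, 21.8 and 9.90 CPM at 25 C, a change of -4.08 ± 0.27 (edgeR adjusted p = 2.38e-07). The other 17 falls ran from -3.93 for grd-12 to -0.89 for grd-15. The call for grd-15 was lost without any one of 4 single libraries (edgeR adjusted p up to 0.132).

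Higher at 25 C in the mutant were grd-4 (34 counts against 3, ratio 10.2, interval 3.20 to 51.8), grl-21, grd-3, grd-10 and grl-4. The rise of grl-21 was 1.86 ± 0.20 (edgeR adjusted p = 1.24e-05), from 9.76, 8.79 and 7.37 CPM to 34.3, 34.8 and 25.4 CPM. That of grd-3 was 1.61 ± 0.20, from 22.1, 28.7 and 38.3 CPM to 90.3, 92.2 and 89.6 CPM (edgeR adjusted p = 3.87e-05). Neither gene's groups overlapped. The call for grl-4 (0.65 ± 0.19, edgeR adjusted p = 0.0133) was lost without mutant 20 C library 2 or mutant 25 C library 2 (0.0602 and 0.0582). The genes grd-13, grl-1, grl-8, grl-13, grl-17, grl-18, grl-26, wrt-3 and wrt-5 were not called.

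**Figure D3:**
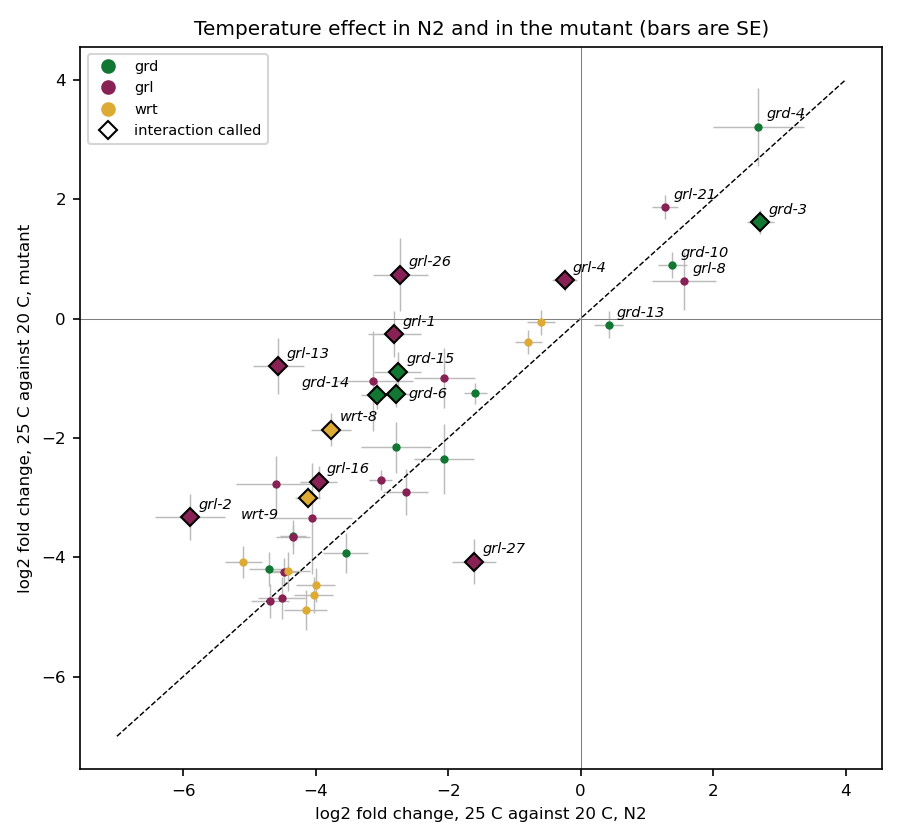
Temperature effect of each tested gene in N2 (x axis) and in the mutant (y axis), as log2 fold change of 25 C against 20 C; bars are SE and the dashed line marks equal effects. Diamonds are the genes whose effects differed by the interaction test. Most points are at the lower left; grl-13 and grl-26 stand above the line and grl-27 below it.

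Genes of the wider pathway and of the moulting cycle were followed beside the family in N2. Of the Hedgehog-related genes outside the naming rule, qua-1, which is needed for moulting, was at -4.33 and hog-1 at -3.93 in N2, and both were also called lower in the mutant. Of the Patched-related and Dispatched-related genes, 27 of 28 were tested, and 23 were lower and 4 higher in N2 (median -2.18). The largest falls were those of ptr-4, a gene needed for moulting (-4.52), ptr-18 (-4.42), ptr-1 (-4.08) and ptr-16 (-3.93). Those called higher were ptr-13 (2.81), ptc-1, which acts in the germline (1.75), ptr-8 (1.21) and ptr-2 (0.82). In the mutant 18 were lower and 4 higher (median -1.67), led by ptr-4 at -4.59. The gene ptr-24, named above as the partner of grl-21, was chosen after its values were seen and was at -0.34 in N2 (edgeR adjusted p = 0.0398).

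Of 21 moulting and larval timing genes, 20 were lower in N2 and none higher (median -3.01), led by mlt-10 (-4.90), mlt-8 (-4.61), bed-3 (-4.23) and mlt-9 (-4.15). In the mutant 18 of 21 were lower (median -2.47). All 6 furrow collagens and all 11 other body-shape and strut collagens tested were lower in both strains. All 3 adult cuticle collagens, col-7, col-19 and col-62, were higher in both strains, with medians of 3.78 in N2 and 2.25 in the mutant. All 10 oocyte markers were higher in N2 (median 4.00), and 9 of 10 in the mutant (median 2.42).

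In summed CPM, the family held 3656 to 4276 in N2 at 20 C, 3169 to 3980 in the mutant at 20 C, 541 to 672 in N2 at 25 C and 582 to 844 in the mutant at 25 C. The moulting list held 2506 to 2746, 2465 to 3193, 276 to 318 and 263 to 351 CPM in the same order. The adult collagens held 168 to 204, 259 to 424, 2557 to 2704 and 1803 to 2072 CPM, and the oocyte markers 140.2 to 408, 94.6 to 534, 2660 to 4445 and 1613 to 2502 CPM. Thus the larval genes were lower, and the adult collagens and oocyte genes higher, in the 25 C libraries, although all 4 groups carry the same stage label. No age in hours is given in the sources used here. The part of stage in the temperature result was not tested.

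Markers of tissues were followed as well. Of the epidermal regulators elt-1, elt-3 and lin-26, 2 were called higher and none lower in N2, and none was called in the mutant. Of 5 seam genes tested, 4 were lower in N2 and 1 in the mutant. Of 4 glial genes tested, 1 was lower and 1 higher in N2, and 2 were lower and 1 higher in the mutant. Intestinal markers were lower in N2 for 4 of 5 genes, muscle for 2 of 5 and neurons for 5 of 7. Of 18 sperm genes tested, 1 was higher in N2 and 13 were lower in the mutant. Summed seam markers were 31.7 to 37.1 CPM in N2 at 20 C and 17.8 to 20.8 CPM at 25 C, and 20.5 to 31.8 and 21.9 to 26.5 CPM in the mutant. Summed glial markers were 35.01 to 41.3 CPM in N2 at 20 C and 21.4 to 27.2 CPM at 25 C, and 31.5 to 44.7 and 15.2 to 19.3 CPM in the mutant. The epidermal regulators summed to 62.1 to 66.8 CPM in N2 at 20 C and 96.2 to 103 CPM at 25 C, and to 75.2 to 82.7 and 61.3 to 76.3 CPM in the mutant. A second entry of msp-31 was at 0 in all libraries, and no other marker was. The part of these tissues in the family's values was not tested.

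The second comparison sets the mutant against N2 at 20 C. It called 7 of 41 genes lower and none higher, where 5.16% of all genes were called lower and 1.95% higher. All 7 were grl genes: grl-26, grl-13, grl-31, grl-17, grl-22, grl-1 and grl-4. The median over the 41 was -0.09 and that over all genes 0.05. No wrt or grd gene was called by edgeR. At an unadjusted p under 0.05, 7 of the 41 were higher (2 grd, 2 grl and 3 wrt genes) and 12 lower, where 10.3% of all genes were higher and 12.2% lower by that rule. DESeq2 called the same 7 grl genes lower and 3 genes higher, grd-3 (0.59), wrt-2 (0.88) and wrt-10 (0.88). The calls rest on which libraries enter: without mutant 20 C library 3, 18 genes were called, 7 higher and 11 lower, and over all genes the count went from 1052 to 5883. The 11 gained were grd-6, grd-11, grd-12, grd-16, grl-10, grl-16, grl-27, wrt-1, wrt-2, wrt-8 and wrt-10. Without N2 20 C library 1 or 2, or without mutant 20 C library 1, 4 genes were called. Over all genes these fits called 544, 483 and 584.

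The largest differences were in genes with few reads in the mutant. For grl-26, N2 had 8.16, 7.73 and 4.75 CPM and the mutant 0.407, 0.280 and 0.425 CPM, so that even the lowest N2 library was far above the highest mutant one. The log2 fold change was -4.26 ± 0.50 (edgeR adjusted p = 0.000475). For grl-13, N2 had 13.7, 13.2 and 11.1 CPM and the mutant 1.49, 0.504 and 0.709 CPM (-3.91 ± 0.37, edgeR adjusted p = 0.000243). For grl-31, N2 had 12.3, 11.2 and 8.90 CPM and the mutant 0.949, 0.560 and 2.55 CPM (-3.13 ± 0.58, edgeR adjusted p = 0.0067). In all 3 genes the strains were far apart, and the values of mutant library 3 were like those of the other mutant libraries or nearer to N2.

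For grl-22, N2 had 28.1, 21.6 and 17.2 CPM and the mutant 7.19, 6.55 and 5.67 CPM (-1.78 ± 0.22, edgeR adjusted p = 0.000595). These 4 calls held whichever single library was left out. The gene W03A5.1, which overlaps grl-22 in the annotation, was at 4.19 to 8.14 CPM in all 12 libraries and differed by 0.05 ± 0.28 at 20 C. The differences for grl-17 (-2.64 ± 0.59, edgeR adjusted p = 0.0182) and grl-4 (-0.81 ± 0.19, edgeR adjusted p = 0.0241) were each lost without some single library of the 2 groups. The first rose to an adjusted p of at most 0.0805 over 3 such fits and the second to at most 0.113 over 4. For grl-1, mutant library 3 (6.81 CPM) lay near N2 (8.65 to 10.3 CPM), while the other 2 were at 2.30 and 2.13 CPM. Its change of -1.39 ± 0.37 (edgeR adjusted p = 0.0425) was lost in 11 of 12 fits that left out a library and kept only without mutant 20 C library 3. The libraries of the strains did not overlap for 19 of the 41 genes, the 7 called among them, with the mutant lower in 14 and higher in 5. Over all 14800 genes they did not overlap with the mutant lower in 11.9% and with the mutant higher in 9.78%, so the count of higher genes was close to the background. Beside the family, 4 Patched-related genes were lower at 20 C, ptr-22 (-3.45), ptr-5 (-0.84), ptr-1 (-0.72) and ptr-20 (-0.64).

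Beside these values, 2 of the 3 adult collagens, col-7 (2.31) and col-62 (1.74), and 4 of 6 furrow collagens were higher in the mutant at 20 C. Of 4 glial genes tested 1 was lower, kcc-3 (-1.42 ± 0.25, edgeR adjusted p = 0.00517). It held 18.26, 18.95 and 17.81 CPM in N2 and 5.97, 5.99 and 8.79 CPM in the mutant. The median of the glial genes was -0.84. Their sums overlapped, at 35.01 to 41.3 CPM in N2 and 31.5 to 44.7 CPM in the mutant. Of 5 seam genes 1 was lower. The part of these collagens and markers in the family's differences was not tested.

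At 25 C the mutant differed from N2 in 16 of 41 genes, 12 higher and 4 lower. Over all genes, 17.4% were higher and 11.2% lower, so the count of lower genes was close to the background. The median was 0.15 over the 41 and 0.05 over all genes. Of the wrt genes 3 were higher, of the grd genes 4 were higher and 2 lower, and of the grl genes 5 were higher and 2 lower. Without N2 25 C library 1, N2 25 C library 3 or mutant 25 C library 2, the counts were 9, 8 and 7. Over all genes the count went from 4227 to 2151, 2236 and 2247 in these fits. The genes called whichever single library was left out were 6, namely grd-1, grd-6, grd-14, wrt-8, wrt-9 and grl-27.

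For grd-14, N2 had 27.8, 30.5 and 25.0 CPM and the mutant 75.4, 97.0 and 54.3 CPM, with no overlap (1.45 ± 0.23, edgeR adjusted p = 0.000965). For grd-6, N2 had 12.18, 14.04 and 8.84 CPM and the mutant 23.43, 29.34 and 18.02 CPM (1.01 ± 0.21, edgeR adjusted p = 0.00558). For wrt-8, N2 had 2.39, 2.54 and 1.93 CPM and the mutant 5.58, 7.13 and 3.92 CPM (1.28 ± 0.30, edgeR adjusted p = 0.00932). In each, mutant library 2 was the highest and mutant library 3 the lowest of the mutant libraries. The increases of grd-1 and wrt-9 were 1.05 ± 0.19 and 0.90 ± 0.19 (edgeR adjusted p = 0.00269 and 0.00568). In the opposite direction, grl-27 had 3.24, 5.24 and 5.14 CPM in N2 and 1.71, 1.78 and 0.747 CPM in the mutant (-1.66 ± 0.38, edgeR adjusted p = 0.00803).

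The excretory duct gene grl-2 had 17 counts in the mutant against 2 in N2, a ratio of 8.52 with an interval of 2.02 to 76.0. Its call was lost without mutant 25 C library 2 (edgeR adjusted p = 0.0552). The genes grl-12 (2.22 ± 0.73), grd-15 (1.31 ± 0.37), grl-1 (1.17 ± 0.41), grl-21 (0.75 ± 0.19), grl-10 (0.69) and wrt-3 (0.66) were higher. The other 3 lower genes were grd-16 (-1.78 ± 0.61), grl-22 (-1.09 ± 0.32) and grd-13 (-0.73 ± 0.22). Each of these 9 lost its call in at least 1 fit without a single library. For grl-10 the overlapping ribosomal protein gene rpl-39 also differed, by 0.88 ± 0.21 (edgeR adjusted p = 0.0096). For grl-1 the overlapping gene hir-1 was not called, at 0.41 ± 0.16 (edgeR adjusted p = 0.0741), nor at 20 C, at -0.38 ± 0.16 (0.185). For grd-15 the overlapping gene cyn-15 differed by -0.15 ± 0.15. Of the Patched-related and Dispatched-related genes 7 were higher and 1 lower. The largest differences were those of ptd-2 (1.60), ptr-3 (1.29), ptr-1 (1.03) and ptr-2 (-1.01). Of the moulting list 3 were higher and 3 lower.

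Markers of stage and tissue also differed between the strains at 25 C. Of 18 sperm genes 4 were lower in the mutant and none was higher (median -0.68), and the list summed to 1687 to 1843 CPM in N2 and 888 to 1107 CPM in the mutant. Of 10 oocyte genes none was called by edgeR and 1 was lower at an unadjusted p under 0.05 (median -0.97), with sums of 2660 to 4445 CPM in N2 and 1613 to 2502 CPM in the mutant. Of 5 intestinal genes 2 were higher, ges-1 (0.86) and ifb-2 (0.90), with sums of 1311 to 1423 CPM in N2 and 1777 to 2248 CPM in the mutant. Of 7 neuronal genes 2 were higher, unc-13 (1.08) and ric-4 (0.71), and 1 of 5 seam genes was higher, rnt-1 (1.61). One gene each was lower of the glial list (kcc-3, -1.03), the epidermal regulators (lin-26, -0.63) and the adult collagens (col-19, -0.58). The summed sperm, oocyte, intestinal, seam, glial, epidermal and adult collagen markers did not overlap between the strains. The part of these markers in the family's differences was not tested.

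**Figure D4:**
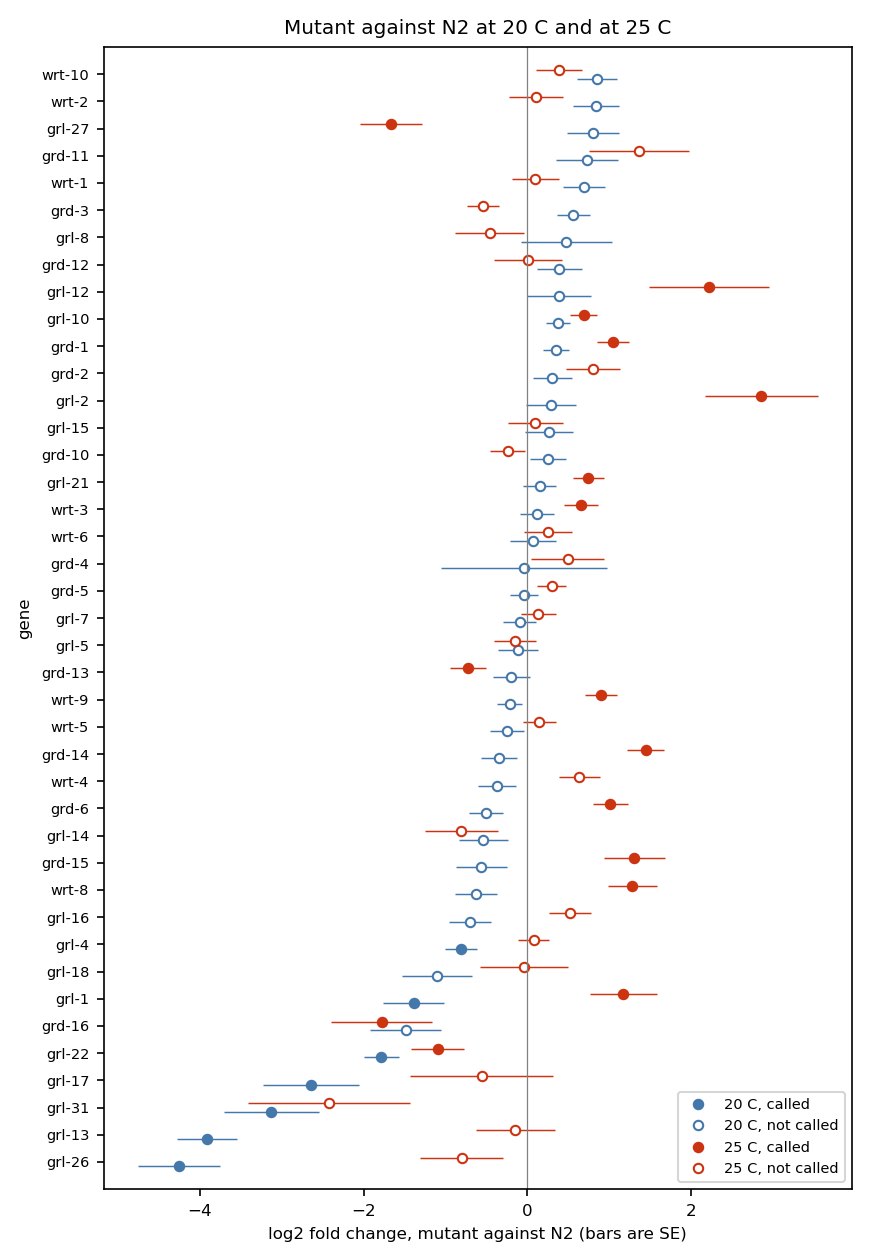
Log2 fold change of mutant against N2 for the 41 tested genes at 20 C (blue) and at 25 C (red), sorted by the value at 20 C; bars are SE and filled points are called. The filled blue points are 7 grl genes to the left of 0. Of the filled red points 12 are to the right of 0 and 4 to the left.

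The temperature effect in the mutant minus that in N2, tested as an interaction in the same fit, was called for 13 of 41 genes, 11 positive and 2 negative. Over all genes 13.5% were positive and 9.26% negative. The median was 0.53 over the 41 and 0.04 over all genes. It was positive for 2 wrt, 3 grd and 6 grl genes. The calls for grl-13, grl-26, grl-1, grl-27, grd-3, grd-6, grd-14, wrt-8 and wrt-9 held whichever single library was left out.

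Most of the positive values belonged to genes that fell less with temperature in the mutant. For grl-13 the interaction was 3.77 ± 0.63 (edgeR adjusted p = 0.00308). All 3 libraries of N2 at 20 C held 11.1 to 13.7 CPM, and the other 9 libraries held 0.256 to 1.49 CPM. For grl-26 it was 3.45 ± 0.75 (edgeR adjusted p = 0.00921), with 4.75 to 8.16 CPM in N2 at 20 C and 0.280 to 1.78 CPM elsewhere. So both genes were high in a single group of the 4. The remaining positive genes were grl-2 (2.57), grl-1 (2.56), wrt-8 (1.91), grd-15 (1.87), grd-14 (1.79), grd-6 (1.52), grl-16 (1.22), wrt-9 (1.12) and grl-4 (0.89). Of these, grl-1, grl-2 and grd-15 overlap a coding gene. The interaction was called for hir-1, which overlaps grl-1 (0.79 ± 0.23, edgeR adjusted p = 0.0288). It was not called for T16G1.9 at grl-2 (0.19 ± 0.19) or cyn-15 at grd-15 (-0.30 ± 0.21). The part of the overlapping genes was not tested.

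The negative genes were grl-27 and grd-3. For grl-27, N2 fell from 17.2, 14.2 and 10.4 CPM to 3.24, 5.24 and 5.14 CPM, and the mutant from 29.2, 28.2 and 15.3 CPM to 1.71, 1.78 and 0.747 CPM. The fall was larger in the mutant by 2.46 ± 0.49 (edgeR adjusted p = 0.00689). For grd-3 the rise was smaller in the mutant (-1.10 ± 0.28, edgeR adjusted p = 0.0178). Beside these, 9 Patched-related and Dispatched-related genes were positive, led by ptr-22 (3.46) and ptd-2 (2.83), and 3 of 3 adult and 2 of 6 furrow collagens were negative. Of the tissue markers, 3 neuronal, 2 intestinal and 1 seam gene were positive, and 4 sperm, 1 oocyte, 1 glial and 1 epidermal gene were negative. Their part was not tested. Mutant 20 C library 3 enters every one of these values. Without it 16 of the 41 genes were called, and over all 14800 genes the count went from 3374 to 8133.

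Small RNAs antisense to the family were scarce. In the 20 input libraries the antisense reads of all family genes summed to 32.0 to 111 reads scaled to the library total (RPM), with a median of 59.9 RPM. A single gene, grl-27, made up 19.3% to 65.9% of that sum, at 6.19 to 73.2 RPM. The next 5 by mean input were grl-31 (3.53 RPM), grd-15 (3.48), grl-3 (3.28), wrt-7 (1.86) and wrt-9 (1.69). The mean input of 46 genes was under 1 RPM. The gene grl-27 has no overlapping gene in the annotation.

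For each strain, IP was compared with input by limma on log2(RPM + 1), which understates the change of low genes. A gene was tested if 2 of the 4 libraries held 10 estimated reads, and called at an adjusted p under 0.05 with a log2 change of at least 1 in either direction. Of the 57 genes, 19 could be tested in at least 1 strain and 38 in none. Of 74 tests of a gene in a strain, 29 gave depletion, in 8 genes, and 4 enrichment, in 3 genes. These totals count the same genes in several strains, and the shares over all features are given per strain below. A gene could pass the filter through its inputs alone or its IPs alone, which favours a call in that direction. The counts and medians therefore describe the tested genes only. Reads carry no molecular identifiers, so counting intervals cover counting error only. A read that falls where 2 genes overlap may belong to either. It is antisense to both only if they lie on the same strand, and the strands of overlapping genes were not compared here.

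In the tagged CSR-1 IPs few of the tested family genes had enriched antisense reads, while the share of coding features enriched was from 42.5% to 56%. In JMC101 (CSR-1), 1 of 11 tested family genes was enriched and 5 depleted, while 54.5% of all antisense coding features were enriched and 19.5% depleted. The median was -1.21 against 1.42. In JMC164 (CSR-1b), 1 of 9 was enriched and 5 depleted, against 50.7% and 19.4% (median -1.16 against 1.09). In JMC151 (CSR-1a), the only gene tested, grl-27, was depleted, where 42.5% were enriched and 15.4% depleted. In JMC161 (titled CSR-1), 1 of 10 was enriched and 3 depleted, against 56% and 13.3% (median -0.27 against 1.42).

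In the CSR-1a IPs from strains with no named tag, 0 of 16 genes were enriched and 6 depleted in GR3035, against 33.2% and 11.6% (median -0.54 against 0.53). In GR3039, 0 of 6 were enriched and 1 depleted, against 16.7% and 6.82% (median -0.98 against 0.17). With the replicate number as a block, 2 were depleted in GR3039.

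For ALG-3 (JMC205), 0 of 7 were enriched and 4 depleted, against 28.9% and 31% (median -1.20 against -0.41). In JMC207 (ALG-4), 1 of 8 was enriched and 4 depleted, against 33.1% and 33.6% (median -0.99 against -0.30). For the WAGO proteins limma made no call, and none of their tested genes had both an unadjusted p under 0.05 and a change of the set size. The counts of 0 enriched genes in JMC151, JMC205, GR3035 and GR3039 were also 0 at an unadjusted p under 0.05. In JMC248 (WAGO-10) 4 genes were tested, where 10.4% were enriched and 8.98% depleted. In JMC223 (WAGO-4) 2 genes were tested, where 68.2% were enriched and 5.25% depleted, and the second input held only 325376 estimated reads. With so few genes tested, the members' counts in single strains describe those genes alone.

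The gene grl-27 was depleted in 7 of 10 strains. In JMC205 its inputs held 31.5 and 36.3 RPM and the ALG-3 IPs 6.58 and 7.16 RPM (-2.15 ± 0.11, limma adjusted p = 2.42e-07). In JMC164 the inputs held 30.7 and 36.8 RPM and the IPs 4.27 and 2.10 RPM (-3.10 ± 0.32, limma adjusted p = 9.38e-05). In both strains each input was several times each IP. The same held in JMC101, where inputs of 29.0 and 25.2 RPM stood against IPs of 1.93 and 3.34 RPM (-2.98 ± 0.31, limma adjusted p = 0.000261). In JMC207 and JMC161 the changes were -2.55 ± 0.21 and -2.54 ± 0.39, in JMC151 -2.35 ± 0.58 and in GR3035 -1.66 ± 0.18. It was not called in GR3039 (-0.86 ± 0.24) or JMC248 (-0.89 ± 0.25), whose changes were under the set size. In JMC223, inputs of 25.0 and 18.4 RPM and WAGO-4 IPs of 17.6 and 24.3 RPM overlapped (-0.05 ± 0.33, limma adjusted p = 0.901). The JMC151 call was lost without its second IP (limma adjusted p = 0.12).

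Without grl-27 the summed antisense reads of the family were still lower in the IP in 9 of 10 strains. The ratio of mean IP to mean input was 0.318 for ALG-3, 0.399 for ALG-4, 0.524 for JMC101, 0.570 for GR3035, 0.571 for JMC164, 0.611 for WAGO-10, 0.630 for GR3039, 0.634 for JMC151 and 0.831 for JMC161. For WAGO-4 it was 1.18. All antisense coding reads together gave ratios of 0.807 (WAGO-10) to 3.27 (WAGO-4). These ratios of the authors' RPM carry no test.

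**Figure D5:**
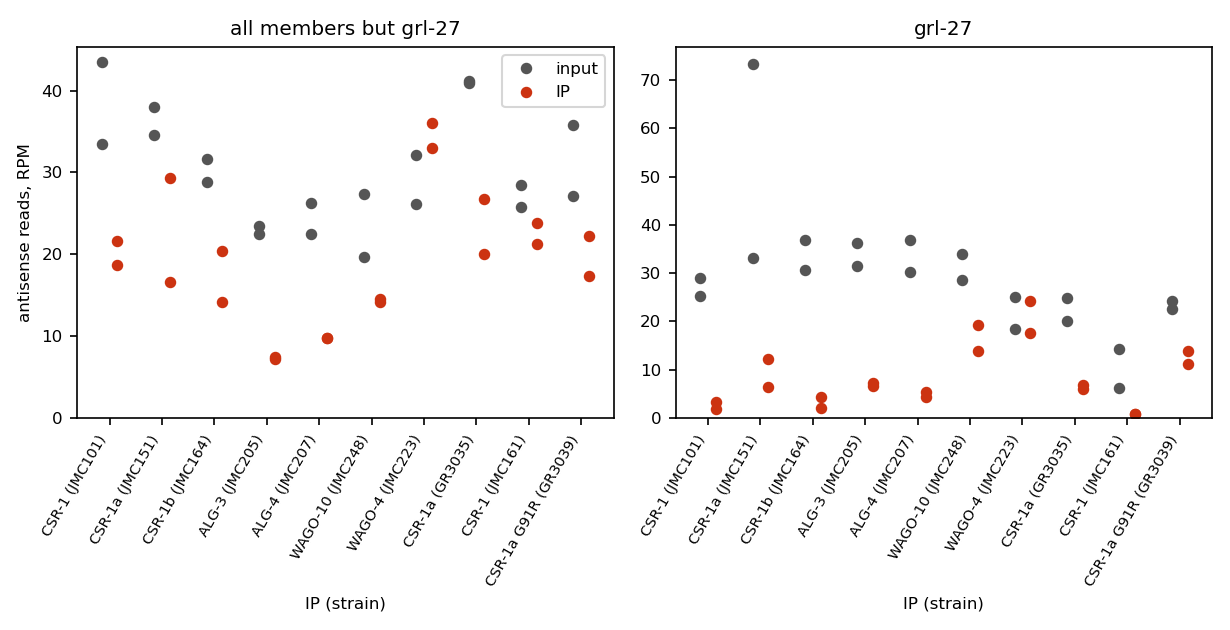
Antisense reads in RPM for the family without grl-27 (left) and for grl-27 (right) in the 2 inputs (grey) and 2 IPs (red) of each strain; every point is a library. For grl-27 the IPs lie below the inputs except in JMC223, where they overlap.

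Other depleted genes were low in the inputs. Depletion of grl-31 was called in JMC101, JMC164, JMC205, JMC207 and GR3035, at -1.94 to -1.31. In JMC205 its inputs held 4.09 and 4.17 RPM and the IPs 0.695 and 0.864 RPM (limma adjusted p = 3.68e-05). Depletion of grd-15 was called in the same 5 strains, at -1.85 to -1.26. In JMC207 the inputs of grd-15 held 4.17 and 3.40 RPM and the IPs 0.253 and 0.393 RPM (limma adjusted p = 0.000115). In JMC205 grl-31 and grd-15 passed the read filter through their inputs alone, and so did grd-15 in JMC207. With either input left out they could no longer be tested there, so these calls were not made. In JMC101 antisense reads of the overlapping gene cyn-15 changed by 3.18 while those of grd-15 changed by -1.43. Depletion of grl-3 was called in JMC101, JMC161, JMC164 and GR3035, at -1.46 to -1.03. The coding gene deg-3 overlaps grl-3, and its antisense reads also changed by -1.07 in JMC101 (limma adjusted p = 0.0167), -0.83 in JMC164 (0.0736) and -0.67 in GR3035 (0.0392). Antisense calls of grl-3 were lost in 3 of 4 fits without a library in JMC164, 2 of 4 in GR3035 and 1 of 4 in JMC101. Those of grd-15 were lost without either IP in JMC101 (limma adjusted p = 0.0503 and 0.0548) and without the second IP in JMC164 (0.0659), and that of grl-31 without the first IP in JMC101 (0.0537).

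The gene grl-8 was depleted in 3 strains. In GR3035 its inputs held 5.68 and 7.56 RPM and the IPs 0.871 and 1.35 RPM (-1.85 ± 0.25, limma adjusted p = 0.000875). In GR3039 the IPs held no read, so that the level was at least 1.78-fold lower against a floor of 3 reads per library. In JMC207, 21 input reads stood against 3 in the IPs, a ratio of 10.7 with an interval of 3.21 to 56.3. The gene grl-4 was depleted in JMC205, where 49 input reads stood against 1 in the IPs (ratio 28.5, interval 4.89 to 1150), and in GR3035 (-1.04 ± 0.23). Depletion of wrt-7 was called in JMC101 and JMC164 (-1.21 and -1.20). It was lost without either IP in JMC101 (limma adjusted p = 0.0631 and 0.1) and in both fits without a library in which it could be tested in JMC164 (0.0682 and 0.12). The grl-4 call in GR3035 was lost in 2 of 4 such fits and the grl-8 call in JMC207 in 1 of 2, where the change fell under the set size. Depletion was called for wrt-5 in JMC161 (-1.40 ± 0.27, limma adjusted p = 0.00225). Inputs alone carried wrt-5 in JMC161, grl-4 in JMC205 and grl-8 in JMC207 and GR3039 past the read filter. With either input left out these genes could no longer be tested there, so the calls were not made.

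The 4 enrichments concerned 3 genes. Antisense reads of grl-26 were at 0.324 and 0 RPM in the JMC101 inputs and at 2.73 and 2.73 RPM in its IPs, that is 1 read against 91 (ratio 23.3, interval 4.07 to 929). In JMC164 they were at 0.156 and 0 RPM in the inputs and at 1.05 and 4.03 RPM in the IPs, 3 reads against 51 (ratio 11.3, interval 3.65 to 56.6). The IPs lay above the inputs in both strains. In JMC164 the change was 1.68 without the first input and 1.48 without the second, and the call was lost both times. In both strains grl-26 passed the read filter through its IPs alone. With any single IP library left out it could no longer be tested, so neither call was made. In the annotation grl-26 overlaps a non-coding RNA gene and a tRNA gene, whose part was not tested. In the mRNA comparison at 20 C, in which the mutant is JMC164, grl-26 had the lowest log2 fold change of the 41 genes. A link between its antisense reads and its mRNA was not tested.

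Antisense reads of grl-10 were enriched with ALG-4 in JMC207, with inputs of 0.431 and 0.194 RPM and IPs of 1.96 and 1.40 RPM (1.03 ± 0.21, limma adjusted p = 0.00306). The change fell to 0.90, under the set size, without the second input. In JMC207 grl-10 passed the read filter through its IPs alone. With either IP left out it could no longer be tested, so the call was not made. Antisense reads of the overlapping gene rpl-39 changed by 2.91 in the same IP, and the strands of these genes were not compared. Antisense reads of wrt-4 were enriched in JMC161, with inputs of 0.794 and 0.519 RPM and IPs of 2.49 and 2.61 RPM (1.11 ± 0.27, limma adjusted p = 0.00754). That call was lost without the second input (limma adjusted p = 0.0673). No wrt or grd gene was called enriched in any other strain.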

How the data were processed

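Whole-worm mRNA and Argonaute-bound small RNA were measured as described above. The mRNA tables hold whole-number counts per gene, deposited by the authors without normalization. The small RNA tables hold normalized reads (RPM) per gene and strand, deposited by the authors with an offset of 0.01 RPM on every value, which was taken off here. The submitters' processing notes name cutadapt, STAR, FastQC and DESeq2. Versions, settings and the genome build were not found among the sources used. The labels' protocols describe a directional kit for the mRNA and a polyphosphatase treatment of the small RNA, so small RNAs with a 5' triphosphate could be cloned.

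The 12 mRNA libraries were fitted together with edgeR 4.0.16 in R 4.3.3 (library factors by TMM, low genes removed by its default filter, quasi-likelihood test), and 5 contrasts were tested over 14800 genes. CPM values use the same factors. Since the small RNA files hold RPM and not counts, IP and input were compared per strain with limma 3.58.1 on log2(RPM + 1) with a mean-variance trend. DESeq2 1.42.0, other scalings, filters, pseudocounts, a replicate block and leaving out each library were tried. Both scripts were tested on simulated data. Gene names, overlaps and neighbours come from RefSeq (WBcel235). The members and lists were chosen with earlier results of these data known. Genes named in the text are the 8 with the highest mean CPM, the called genes of each comparison (at most 10 per direction by size, the rest as a range), every gene called in an IP, the 6 with the highest antisense input and, per list, the 4 largest called changes. A gene named outside these was chosen after its values were seen. Deviations of same-numbered mRNA libraries correlated at -0.405 to 0.323, with 6 of 18 correlations over 0.1. These mixed values cannot settle whether the numbers pair the libraries, and the mRNA fits reported here carry no replicate block. For small RNAs, deviations of same-numbered IP and input libraries correlated at -0.015 (JMC205) to 0.406 (JMC164). The small RNA fits reported here carry no replicate block.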

Additional observations from a re-analysis of the deposited data

Results flagged for a closer look

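The temperature effect in the mutant minus that in N2 passed the interaction test (edgeR adjusted p under 0.05) for 13 genes, and each is listed because 2 strains differed under the same contrast. On the log2 scale it was 3.77 for grl-13, 3.45 for grl-26, 2.57 for grl-2, 2.56 for grl-1, 1.91 for wrt-8, 1.87 for grd-15, 1.79 for grd-14, 1.52 for grd-6, 1.22 for grl-16, 1.12 for wrt-9 and 0.89 for grl-4. It was -1.10 for grd-3 and -2.46 for grl-27. The calls for grd-15, grl-2, grl-4 and grl-16 were each lost in at least 2 fits that left out a single library (edgeR adjusted p up to 0.0586, 0.0991, 0.0915 and 0.0841). Strain and deposited table cannot be told apart in any of these values.

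Sense small RNAs were outside the main measurement. Of 54 tests of a gene's sense reads in a strain, 4 gave enrichment and 16 depletion. The 16 depletions concerned only grd-16, in every strain, grl-18 and grl-30, so they do not describe the family. Over all sense coding features, 4.79% (GR3039) to 39.7% (JMC223) were depleted. Of all sense coding features, 24.3% were enriched in JMC205, 31.1% in JMC207, 4.63% in JMC101 and 1.89% in JMC164, where 1 of 7, 1 of 7, 1 of 6 and 1 of 7 tested family genes were. For grl-22 the ALG-3 IPs of JMC205 held 13.2 and 13.7 RPM of sense reads against 0.319 and 0.363 RPM in the inputs, a log2 change of 3.43 ± 0.15. The ALG-4 IPs of JMC207 held 21.04 and 14.26 RPM against 0.862 and 0.194 RPM, a change of 3.62 ± 0.29. In both strains every IP was far above every input (limma adjusted p = 6.81e-08 and 3.49e-05). The gene W03A5.1 overlaps grl-22, and its antisense reads changed by 4.10 and 4.45 in the same IPs. For grl-10, sense reads changed by 1.53 in JMC101 and by 1.61 in JMC164 (limma adjusted p = 0.00531 and 0.00509). In JMC101 they went from 0.779 and 0.430 RPM in the inputs to 2.98 and 4.30 RPM in the IPs. Antisense reads of rpl-39, which overlaps grl-10, changed by 1.40 and 1.62 in these IPs. The strands of the overlapping genes were not compared, and their part was not tested.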

How the results depend on the processing

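Of the counts of calls and the values of called genes (mRNA and antisense), none reversed under these alternatives; sense reads, gene lists and uncalled genes were not refitted. In edgeR, the counts of called mRNA genes over fits that left out a library ran from 4 to 18 (mutant against N2 at 20 C, 7 in the full fit), 7 to 19 (at 25 C, 16), 37 to 40 (temperature in N2, 39), 30 to 33 (temperature in the mutant, 32) and 9 to 16 (interaction, 13). With the replicate number as a block they were 6, 13, 38, 32 and 11, and with DESeq2 10, 20, 42, 32 and 15. Called in every such fit were 4 of 7, 6 of 16, 37 of 39, 30 of 32 and 9 of 13 genes. Over all genes, the 1052 calls at 20 C became 1669 with DESeq2, 271 with only the groups compared and 483 to 5883 without a library. The 4227 at 25 C became 7489 with only the groups compared and 2151 to 7543 without a library, and the 3374 of the interaction 1738 to 8133. Without the filter the median of all genes moved by 0.128 (25 C), 0.157 (temperature in the mutant) and 0.146 (interaction), and with DESeq2 by 0.135 (temperature in the mutant). For antisense calls, a pseudocount of 5 RPM gave 0 enriched in JMC101, JMC164, JMC207 and JMC161, 1 depleted in JMC101, JMC164, JMC205, JMC207, GR3035 and JMC161, and 0 depleted in GR3039. That pseudocount shrinks changes of low genes by construction. A pseudocount of 0.1 RPM gave 2 enriched in JMC101, 1 in JMC205 and 2 in JMC207. TMM scaling gave 2 enriched in JMC207, 0 enriched in JMC161 and 1 depleted in JMC223. Without the filter none was depleted in JMC151, 0 in all. The replicate block gave 2 depleted in GR3039, 6 in JMC101 and 6 in JMC164. Leaving out a library gave 0 to 2 enriched and 2 to 6 depleted in JMC101, 0 to 0 and 0 to 1 in JMC151, 0 to 0 and 2 to 4 in JMC164, 0 to 0 and 1 to 4 in JMC205, 0 to 1 and 2 to 4 in JMC207, 0 to 0 and 0 to 1 in JMC248, 0 to 1 and 0 to 0 in JMC223, 0 to 0 and 4 to 6 in GR3035, 0 to 1 and 2 to 4 in JMC161, and 0 to 0 and 0 to 3 in GR3039. The cause was not tested for the other changes. Depth limits JMC223, where 1 read of the second input is 3.07 RPM and 2 genes could be tested, and JMC151, where 1 could.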

Other observations

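Most sense reads counted to the family were counted to grd-16, which overlaps 2 non-coding RNA genes in the annotation and had a mean mRNA level of 1.55 CPM. The share of these reads that belongs to the overlapping genes was not tested. Its inputs held 66.8 to 113 RPM in 9 strains and 19.5 and 31.2 RPM in JMC161, while the sense reads of the whole family summed to 37.7 to 151 RPM in the inputs. Sense reads of grd-16 were depleted in the IPs of all 10 strains. Over all sense coding features the depleted share was 4.79% (GR3039) to 39.7% (JMC223). In JMC205 the inputs held 88.6 and 89.6 RPM and the ALG-3 IPs 11.84 and 11.99 RPM, a log2 change of -2.80 ± 0.08 (limma adjusted p = 5.6e-09). The change ran from -3.45 in JMC101 to -1.03 in JMC223. Sense reads of grl-18, whose promoter marks inner labial glia, were depleted in JMC205, JMC207 and GR3035, at -2.28, -1.17 and -1.41. Those of grl-30 were depleted in JMC164, JMC205 and JMC207, at -1.01, -1.34 and -1.23. The gene grd-16 was described after its values were seen.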
